A study of Bos taurus with 8 samples.

Results

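Nucleated blood cells were compared with 7 solid tissues of cattle, namely rumen, abomasum, ileum, mammary/parenchyma (mammary gland), uterus intercaruncular (uterus), frontal cortex and whole testes (testes). The blood cells were 1 of 8 RNA-Seq libraries, chosen by their tissue label, and each tissue had 1 library. The labels give the tissue alone, so the age, sex and animal of each library are not stated here, and no treatment separated the groups. A difference between blood cells and another tissue therefore has no replicate check and includes any difference between animals, and no test was run.

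Mammalian red cells lose their nucleus before they enter the circulation, so the nucleated cells of blood are mainly white cells: lymphocytes, monocytes and granulocytes. These cells carry receptors that come in large families, and many of the families arose by duplication and lie side by side on a chromosome. Solid tissues are instead held together by epithelial, stromal and vascular cells, joined by matrix and by adhesion proteins.

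Expression was measured as FPKM, the number of sequenced fragments scaled to transcript length and library depth, for 36801 loci. Of these, 24886 carried an Ensembl transcript identifier and are called genes here. The deposited table does not pair these identifiers with gene symbols, and 0 of 26547 identifiers were found in the RefSeq gene table used for names. Genes are therefore given by position on the UMD3.1 assembly, families only as background for a chromosome, and defining markers of white cells could not be looked up to check the tissue label. The scaled depth ran from 6021000 to 15484000 reads and was 11997000 reads in blood cells, where 3 reads on a transcript of 1000 bases corresponded to an FPKM of 0.342 (0.265 to 0.681 over the 8 libraries).

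Genes high and genes low in blood cells were counted against the 7 solid tissues. A gene was counted as high where its level, log2(FPKM + 1), was at least 2 above the highest of the 7 other tissues, which is a fold of 4 on the FPKM + 1 scale. In total, 340 of 24886 genes (1.37%) were high in blood cells. By the mirrored rule, at least 2 below the lowest of the 7 others, 341 genes (1.37%) were low. The near equality of these counts depended on the settings, with 411 high and 827 low genes at a pseudocount of 0.1 and 576 high and 355 low genes without ileum. A further rule counted genes listed at 0 in blood cells with an FPKM of at least 1 in each of the 7 others, and 153 genes (0.615%) met it, of which 52 were also low. This count also depended on the setting, with 26 genes at a minimum FPKM of 5 elsewhere and 725 with no minimum. In bulk samples such as these, fewer cells of a type and less RNA per cell cannot be told apart.

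The same rules were applied to each solid tissue for comparison. High genes numbered 1878 in testes and 736 in frontal cortex, 229 in rumen, and 65 to 141 in the 4 remaining tissues, lowest in mammary gland. Only testes and frontal cortex exceeded blood cells by this count. Low genes numbered only 1 to 29 in the solid tissues, and genes listed at 0 numbered 1 to 8. Blood cells had the highest count of the 8 tissues by both of these rules.

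**Figure D1:**
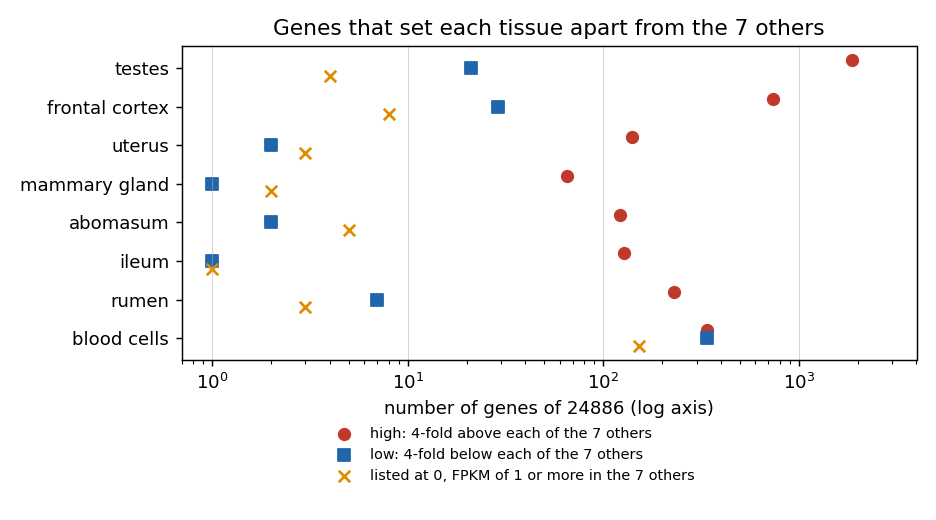
Number of genes, on a log axis, that were high, low or listed at 0 in each tissue against the 7 others; each point is 1 count in 1 library. Blood cells lie at 340 high, 341 low and 153 listed at 0, while no solid tissue exceeds 29 low genes.

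The loss of widely expressed genes was also seen without a fold threshold. Of 9827 genes that reached an FPKM of 1 in the 7 solid tissues, 909 (9.25%) were below 1 in blood cells. The same share was 2.41% in frontal cortex, 2.09% in rumen, 1.74% in testes and 0.224% to 0.856% in the 4 remaining tissues, lowest in ileum. Blood cells had the highest value of the 8 tissues in 2772 genes (11.1%) and the lowest in 3349 (13.5%). The same counts were 5940 and 2164 in testes and 3024 and 2807 in frontal cortex. Over the 8918 genes that reached an FPKM of 1 throughout, the median difference between blood cells and the median of the 7 others was 0.14 as log2(FPKM + 1). Scaling the libraries to the same median moved this by -0.11, well under the threshold of 2. The calls still changed, to 299 high genes and 346 low genes, of which 327 were low without the scaling.

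**Figure D2:**
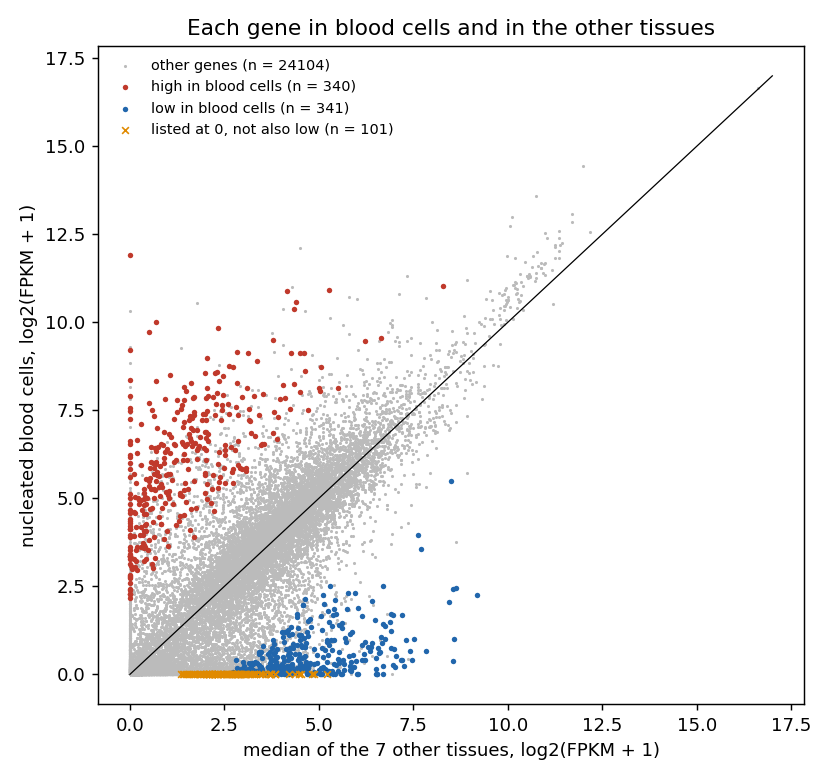
Level of each gene in blood cells against its median level in the 7 other tissues, both as log2(FPKM + 1), with the line of equality. The 340 high genes (red) lie above the line and the 341 low genes (blue) below it, and the genes listed at 0 lie along the lower axis.

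The high genes were chosen for being higher in blood cells, so the values below describe the list and do not test it. Their median FPKM was 63.0 in blood cells, with a range from 3.50 to 3831, and 118 of them reached an FPKM of 100. Elsewhere the median was 6.23 in ileum, 2.86 in mammary gland, 1.91 in abomasum, 0.878 in uterus, 0.724 in testes, 0.606 in rumen and 0.501 in frontal cortex. An FPKM of at least 1 was reached by 80.3% of the high genes in ileum and 67.6% in mammary gland, but by 39.7% in frontal cortex and the same share in rumen. These genes held 7.24% of the summed FPKM of all genes in blood cells, with the mitochondrial loci left out, against 1.02% in ileum and 0.112% to 0.539% in the 6 remaining tissues.

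Ileum was the tissue that most often came next. Of the 317 high genes above 0 in at least 1 other tissue, 229 (72.2%) had their second highest value in ileum, followed by 30 in mammary gland and 19 in testes. Over all 2670 genes in which blood cells were highest and another tissue was above 0, ileum came next in 904 (33.9%). The count of high genes rested on this 1 library more than on any other. Without ileum 576 genes were high, while leaving out another tissue gave 347 to 369. Across 17484 genes that reached an FPKM of 1 in any tissue, Pearson's r of blood cells was highest with ileum (0.786) and mammary gland (0.747) and lowest with frontal cortex (0.568) and testes (0.464). These correlations are across genes, which are not independent replicates.

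**Figure D3:**
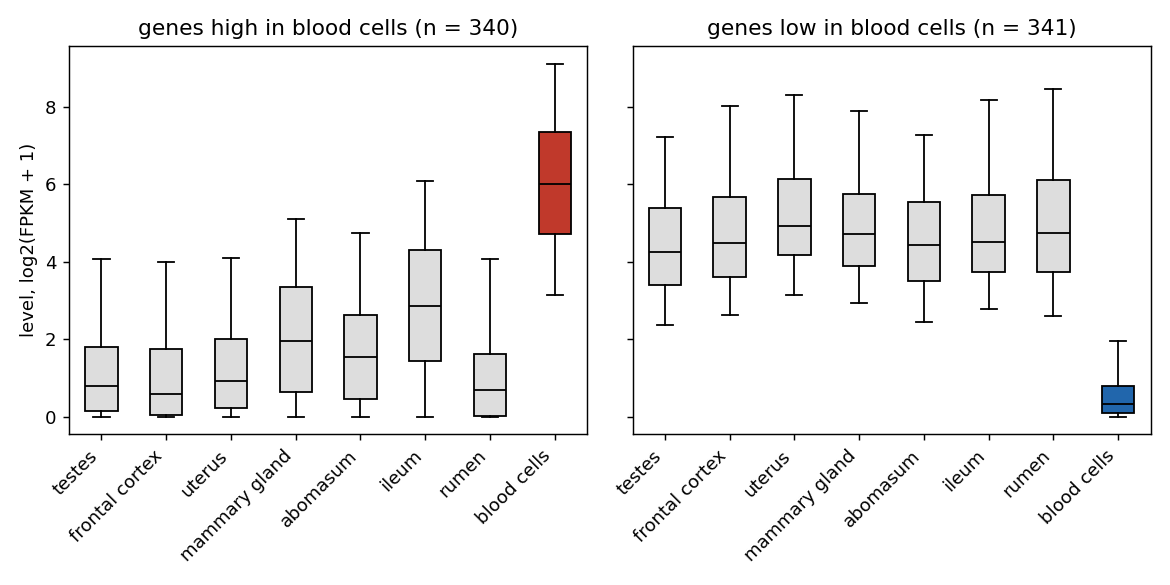
Levels of the 340 high and 341 low genes in the 8 libraries, as log2(FPKM + 1). Boxes span the quartiles with the median as a line, and whiskers reach the percentiles 5 and 95. Among the high genes the solid tissues are ordered with ileum first and mammary gland next, and among the low genes the 7 solid tissues overlap.

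The gene ranked first was ENSBTAT00000062694 at chr19:34255698-34255794, with an FPKM of 592 in blood cells and a listed 0 in the 7 others. Its span was only 97 bases, where a single read was worth an FPKM of 644 in blood cells, so this value stood for about 1 read. Both other high genes spanning under 300 bases, at chr19:18811262-18811372 (FPKM 237) and chr22:7389769-7389898 (FPKM 71.0), rested on about 2 reads each, with a 95% Poisson interval of 0.242 to 7.22 reads that covers counting error only. These 3 genes were below the level of 3 reads and are not read as expression.

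The gene ranked second was ENSBTAT00000062109 at chr5:111044940-111048645, with an FPKM of 330 in blood cells and a listed 0 in the 7 others. It overlapped another gene with an FPKM of 16.5 in blood cells. In all, 23 high genes were listed at 0 in the 7 solid tissues, and 13 of these overlapped another gene. The library kit does not mark the strand, so the reads of overlapping genes were divided by estimation and such values are uncertain. Only 1 of the 23 spanned 2 kb or more without an overlap.

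The strongest genes free of both limits had small but nonzero values elsewhere. At chr11:106822871-106833253 the FPKM was 845 in blood cells, 1.76 in mammary gland, 1.27 in frontal cortex, 0.960 in rumen, 0.425 in testes, 0.319 in uterus, 0.297 in abomasum and 0.269 in ileum. Blood cells exceeded the next tissue by 8.26 on the log2(FPKM + 1) scale, and the 7 others were all close to the lower end of the scale. At chr13:57869976-57879364 the FPKM was 362 in blood cells, 2.22 in frontal cortex, 1.68 in ileum, 1.28 in rumen, 1.10 in uterus, 0.889 in mammary gland, 0.604 in abomasum and 0.211 in testes. At chr3:109993780-110014472 it was 223 in blood cells, 1.33 in abomasum, 1.20 in both mammary gland and testes, 0.918 in ileum, 0.304 in frontal cortex, 0.204 in rumen and 0.0953 in uterus. In these 3 genes ileum was not the next tissue, unlike in most high genes.

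In other leading genes ileum came second at a distance. At chr9:71884621-71913826 the FPKM was 182 in blood cells, 2.53 in ileum, 1.07 in abomasum, 0.809 in uterus, 0.497 in testes, 0.489 in mammary gland, 0.436 in rumen and 0.235 in frontal cortex. At chr5:56743921-56750660 it was 321 in blood cells, 4.26 in ileum, 2.35 in testes, 1.07 in uterus, 0.601 in abomasum and 0.112 in rumen, with a listed 0 in frontal cortex and mammary gland. At chr23:48633936-48776698 it was 373 in blood cells, 7.34 in ileum, 5.20 in mammary gland, 4.14 in testes, 3.76 in abomasum, 3.56 in uterus, 3.44 in rumen and 1.18 in frontal cortex. The gene on chromosome 23 thus had the widest expression of the 3, yet blood cells still stood 5.49 above ileum on the log2(FPKM + 1) scale. On the X chromosome, the gene at chrX:99934499-99939979 had an FPKM of 77.2 in blood cells and at most 0.665, in ileum. At chr2:107114750-107125867 the FPKM was 159 in blood cells, with 2.58 in abomasum and 2.005 in ileum as the next values.

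Of the leading 20 by size of difference, 7 overlapped another gene. Beside the gene ranked second they included those at chr15:29476822-29519515 (FPKM 177 in blood cells), chr3:32376371-32407197 (91.7), chr25:34072620-34083970 (73.8) and chr19:41539380-41608312 (63.3), each listed at 0 in the 7 others, and the gene at chr4:30420509-30839424 (98.1), which reached 0.592 in uterus alone. The gene at chr17:63302809-63335972 had an FPKM of 906 in blood cells and 14.3 in abomasum, the next tissue, and overlapped a gene at 78.5 in blood cells. Of the same 20, 9 were listed at 0 in all 7 others.

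The high genes were also ordered by their FPKM in blood cells. The highest FPKM of a high gene was 3831, within chr5:44421169-44720998, where ileum reached 845 and the 6 other tissues were listed at 0. A second gene of that locus had 1880 in blood cells, 164 in rumen, 66.3 in ileum and 2.01 to 18.5 in the remaining tissues. This locus holds several overlapping genes, so the split between them is uncertain. The gene at chr13:31945012-31952941 was broadly expressed, with 2075 in blood cells and 208 to 509 in the 7 others. At chr18:10780881-10826526 the FPKM was 1935 in blood cells, 318 in ileum, 189 in abomasum, 110.0 in mammary gland and 24.7 to 37.4 in the remaining tissues.

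The genes nearest the threshold were picked from both sides, so they were alike by choice. The gene just inside, at chr5:100901321-100938579, had an FPKM of 563 in blood cells and 140 in ileum, and the gene just outside, at chr15:84517710-84574455, had 69.4 and 16.6. Among low genes, the one just inside, at chr21:7602761-7764507, had 0.0254 in blood cells and 3.104 in frontal cortex, its next lowest tissue. The one just outside, at chr15:30448399-30450407, had 0.148 in blood cells and 3.59 in testes.

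High genes were then placed along the genome, because many white cell receptor genes lie in tandem. High genes no more than 250 kb apart were joined, and a run of at least 3 separate loci was called a cluster. This gave 19 clusters holding 83 of the 340 high genes (24.4%), and in 55 of the 83 ileum was the next tissue. Chromosome 4 had the highest share of high genes (25 of 861, 2.90%), followed by chromosomes 5 (29 of 1334, 2.17%), 18 (26 of 1254, 2.07%) and 2 (21 of 1034, 2.03%). The lowest share was 0.137%, with 1 of 728 genes on chromosome 21. The number of clusters depended on ileum, since 34 were found without it, and on the distance allowed, since 9 were found at 100 kb.

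The cluster with the most loci was at chr4:113669304-114155572, where 11 of 13 genes were high. Chromosome 4 carries the GIMAP genes (6 symbols in the RefSeq table, all on this chromosome), small GTPases known for their role in lymphocyte survival. The table used here does not say whether the 13 genes are these. The FPKM of the 11 genes ran from 39.7 to 566 in blood cells, with a median of 262. The medians elsewhere were 43.1 in ileum, 17.8 in mammary gland, 5.63 in abomasum, 1.74 in uterus, 1.31 in rumen, 1.16 in testes and 0.230 in frontal cortex. The FPKM in blood cells was 5.45 to 9.36 times that in ileum for the 11 genes, a lower limit that the rule itself largely set, and ileum came next in 10.

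Single genes of this cluster show the values in detail. For 1 gene of chr4:113910742-113941457 the FPKM was 566 in blood cells, 60.5 in ileum, 31.9 in mammary gland, 6.85 in abomasum, 6.08 in testes, 2.93 in uterus, 1.25 in rumen and 0.336 in frontal cortex. At chr4:113866633-113890548 it was 505 in blood cells, 67.4 in ileum, 27.5 in mammary gland, 9.60 in abomasum, 3.12 in rumen, 2.14 in testes, 1.74 in uterus and 0.333 in frontal cortex. The exception in its pattern was the gene at chr4:113779133-113821106, with 426 in blood cells, 52.7 in testes, 50.3 in ileum, 21.1 in mammary gland, 5.63 in abomasum, 2.79 in rumen, 2.37 in uterus and a listed 0 in frontal cortex. Here testes, which were at most 6.08 in the other genes of the span, were as high as ileum. Of the genes that were not high, the one at chr4:114106046-114116583 was close to the threshold, with 180 in blood cells and 47.8 in ileum. The other shared its span with a high gene and had 2.37 in blood cells.

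**Figure D4:**
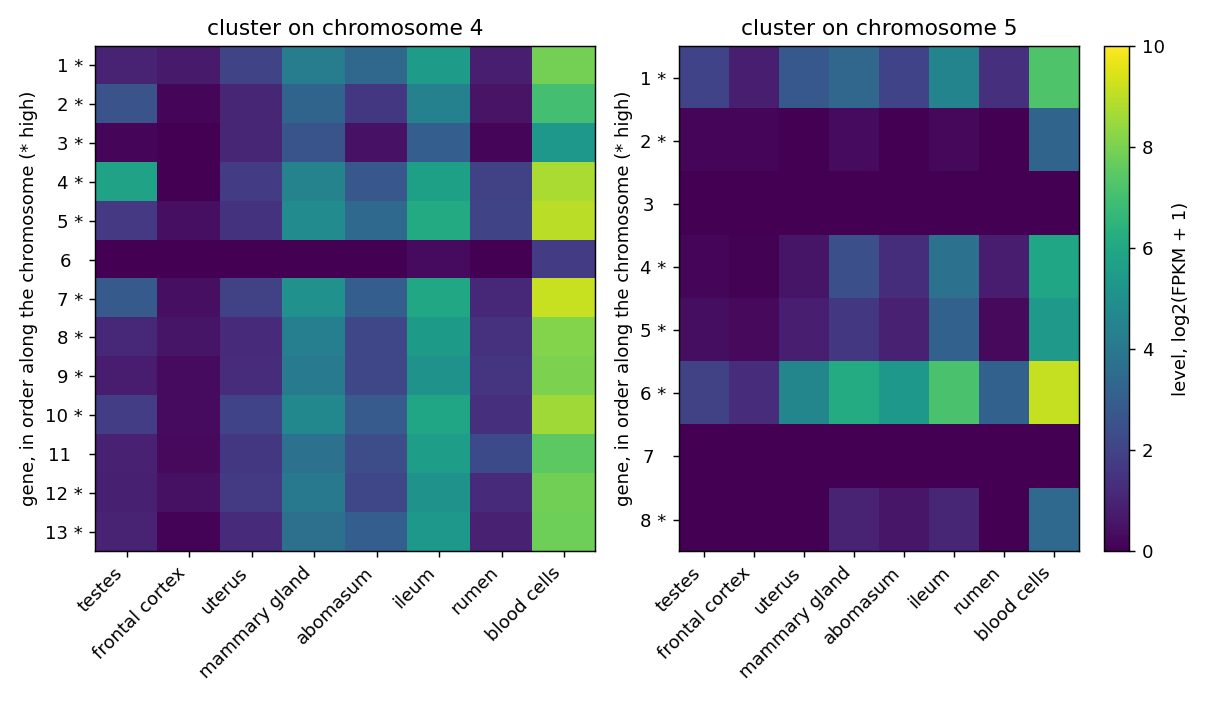
Levels, as log2(FPKM + 1), of all genes within the clusters on chromosome 4 (13 genes, 11 high) and chromosome 5 (8 genes, 6 high), in order along the chromosome, in the 8 libraries. Blood cells are brightest in each row with signal, ileum comes next in most rows, and the rows without signal on chromosome 5 are genes listed at 0 in all 8.

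Chromosome 5 held 3 clusters, of which a pair lay close together. At chr5:100541509-100961494, 6 of 8 genes were high and the other 2 were listed at 0 in all 8 libraries. A neighbouring cluster, at chr5:99974346-100193142, held 3 high genes of 6. The chromosome carries most KLR genes (9 of 10 symbols in the RefSeq table) and many CLEC genes (13 of 26), receptors with a lectin-like domain found on natural killer and myeloid cells. In the first of these clusters the FPKM ranged from 8.33 to 563 in blood cells. At chr5:100740574-100747672 the FPKM was 59.2 in blood cells, 12.3 in ileum, 4.402 in mammary gland, 1.45 in abomasum, 0.734 in rumen, 0.463 in uterus, 0.0871 in testes and 0.0458 in frontal cortex. At chr5:100670787-100681018 it was 8.33 in blood cells and at most 0.230, in mammary gland. The second cluster differed from the first in that ileum was next in 0 of its 3 high genes. Its gene at chr5:100172745-100193142 had 63.6 in blood cells, 11.8 in mammary gland, 5.67 in ileum, 2.29 in testes and at most 0.864 in the remaining tissues. The third cluster of the chromosome, at chr5:75925048-76282819, held 3 high genes of 8, with 68.02 to 186 in blood cells.

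Chromosome 18 also held 3 clusters. The widest, at chr18:62860120-63478354, held 7 high genes of 32, and several of the others were also expressed in solid tissues. Chromosome 18 carries the leukocyte receptor complex, with killer cell immunoglobulin-like receptors and their relatives, and 3 of 5 SIGLEC symbols, receptors that bind sialic acid. In the cluster, the gene at chr18:63146660-63356116 had an FPKM of 219 in blood cells, 13.4 in ileum, 5.67 in abomasum, 2.83 in mammary gland, 1.71 in uterus, 1.02 in rumen, 0.964 in frontal cortex and 0.417 in testes, and shared its span with other genes. At chr18:62935386-62945850 the FPKM was 19.4 in blood cells and 0.283 in frontal cortex, with a listed 0 in the 6 other tissues. A neighbour not counted as high, at chr18:63380358-63388728, had 1577 in blood cells and 371 to 4663 elsewhere. The cluster at chr18:57861372-58014937 held 4 high genes of 11, with 12.3 to 57.6 in blood cells. The cluster at chr18:51467244-51682971 held 3 of 8, with 35.0 to 280 in blood cells.

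Several clusters held 3 high genes. All 3 genes at chr26:11064720-11113885 were high, with 34.3 to 89.3 in blood cells and at most 9.18 elsewhere. Chromosome 26 carries IFIT genes (3 symbols), which interferon induces. At chr23:15081676-15163246, 3 of 4 genes were high, with 10.6, 99.9 and 20.3 in blood cells and at most 3.13 elsewhere. Chromosome 23 carries the TREM genes (4 symbols), receptors of myeloid cells. At chr22:53610520-53862512, 3 of 4 genes were high, with 42.2 to 85.1 in blood cells, and this chromosome carries most CC chemokine receptor genes (8 of 9 symbols).

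The cluster at chr6:90559882-90674173 held 3 high genes of 6. Its gene at chr6:90673205-90674173 had the largest FPKM of the leading genes, with 1028 in blood cells, 11.2 in ileum, 0.933 in abomasum, 0.820 in frontal cortex, 0.612 in mammary gland and a listed 0 in testes, uterus and rumen. Its neighbour at chr6:90664341-90666306 had 47.7 in blood cells and a listed 0 in the 7 others, without an overlapping gene. The third gene had 34.6 in blood cells and 4.49 in ileum. Chromosome 6 carries 10 of 14 CXC chemokine symbols, among them those of platelet factors. Chromosome 25 held a cluster of 4 high genes of 14 at chr25:26733874-26961727, with a narrow range of 174 to 230 in blood cells and 9.60 to 37.7 in ileum, the next tissue for each of the 4.

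A second cluster on chromosome 4 and one on chromosome 10 held many short or shared loci. At chr4:106327647-106621541, 6 of 38 genes at 3 separate loci were high, with 3.82 to 182 in blood cells. At chr10:24734912-25389277, 5 of 20 genes were high, with 4.33 to 16.6 in blood cells and at most 2.35 elsewhere. Most of the other genes were listed at 0 or near it, but a gene not counted as high had 37.9 in blood cells. Cattle carry T cell receptor beta genes on chromosome 4 and alpha and delta genes on chromosome 10, whose variable segments are short and are joined by rearrangement in each T cell. This placement is general knowledge and could not be checked in the RefSeq table.

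The other 5 clusters held 3 or 4 loci each. Both on chromosome 2 held 4 high genes, of 10 at chr2:106906773-107125867 and of 14 at chr2:125773048-126293726. The remaining ones were at chr7:18350329-19083405 (4 of 20), chr23:27399255-27604055 (4 of 28) and chrX:91842901-92112920 (3 of 10). Within the cluster on chromosome 23 a gene at chr23:27491124-27531874 had 715 in blood cells, 47.0 in ileum, 35.6 in mammary gland and 7.08 to 24.5 in the remaining tissues.

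**Figure D5:**
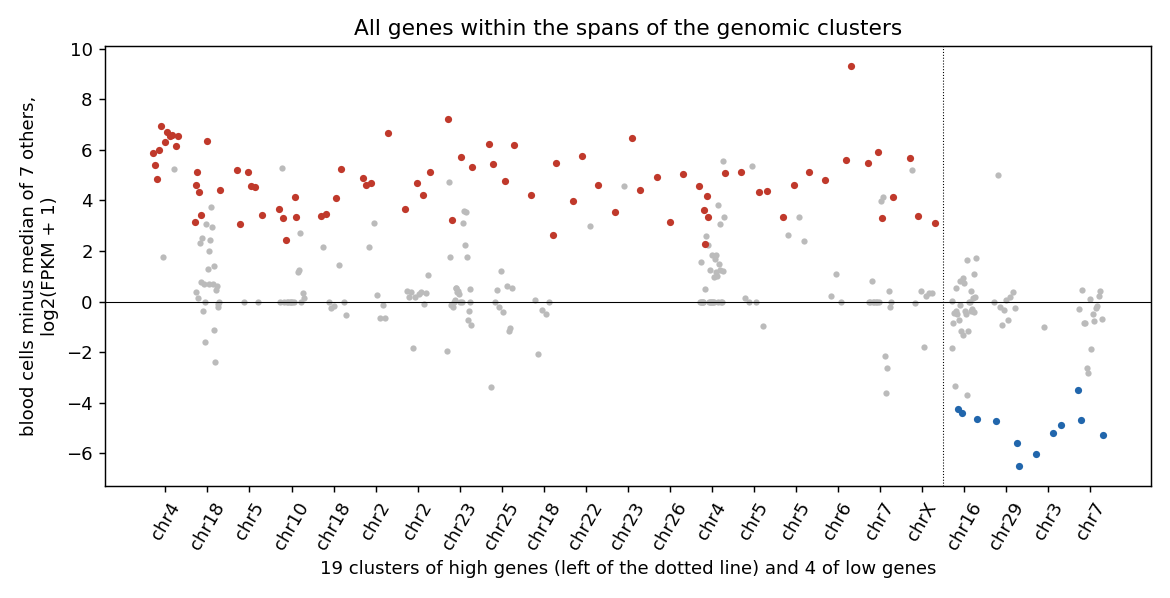
Difference between blood cells and the median of the 7 others, as log2(FPKM + 1), for all genes within the 19 clusters of high genes and the 4 clusters of low genes; each point is 1 gene, coloured where it was counted as high (red) or low (blue). In the leftmost cluster, the one with 11 of 13 genes high, nearly all genes lie above 4, while in the wider clusters genes near 0 lie between the high ones.

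Windows known to carry immune and other gene families were examined as a whole. They share high genes with the clusters above, so windows and clusters are not separate lists. The cluster at chr23:27399255-27604055 holds all 4 high genes of the window of MHC classes IIa, III and I. The cluster at chr18:62860120-63478354 holds 7 of the 10 in that of the leukocyte receptor complex. Of 19 windows placed from general knowledge, 17 were used, and the family's chromosome could be checked by name for 15, but not for the windows of the T cell receptor alpha and delta genes and of the immunoglobulin kappa chain. A window also holds genes outside its family, and its share of high genes is to be read against 1.37% over all genes. In the window of the T cell receptor alpha and delta genes (chromosome 10, 21 to 25 Mb), 8 of 107 genes were high (7.48%), in that of the leukocyte receptor complex (chromosome 18, 60 to 65 Mb) 10 of 165 (6.06%), and in that of the SLAM family and Fc gamma receptors (chromosome 3, 7 to 10 Mb) 4 of 78 (5.13%). In the T cell receptor window the gene with the most signal in blood cells, within chr10:22106909-23304334, had 560 in blood cells, 109 in ileum, 34.3 in mammary gland, 10.5 in abomasum, 7.69 in testes, 4.47 in uterus, 3.42 in rumen and 0.772 in frontal cortex. In the SLAM window the gene at chr3:9022904-9053379 had 387 in blood cells, 59.9 in ileum, 17.8 in abomasum, 14.4 in mammary gland and 0.248 to 3.90 in the remaining tissues.

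Windows of antigen presentation and of antibody chains were examined in the same way. In the window of MHC classes IIa, III and I (chromosome 23, 25 to 29 Mb), 4 of 148 genes were high (2.70%), and the gene at chr23:28468651-28506317 had 12343 in blood cells, 9155 in ileum, 6414 in mammary gland, 5159 in abomasum, 1710 in uterus, 891 in rumen, 669 in frontal cortex and 404 in testes. In the same window ileum exceeded blood cells at chr23:25584313-25592230, with 2404 against 1781. In that of MHC class IIb (chromosome 23, 6 to 9 Mb) 0 of 64 genes were high. The window placed for the immunoglobulin kappa chain (chromosome 11, 46 to 48 Mb), which was not checked by name, held 2 high genes of 39 (5.13%), with 98.5 and 85.5 in blood cells and 20.97 and 14.3 in ileum. In the same window chr11:47027027-47174628 went the other way, with 59.0 in blood cells against 872 in ileum, 194 in abomasum and 143 in mammary gland. In the window of the immunoglobulin lambda chain (chromosome 17, 70 to 75 Mb) 2 of 180 genes were high (1.11%), a share near the 1.37% over all genes. Its most abundant gene in blood cells, within chr17:72826635-73152866, had 10922 in ileum, 6806 in abomasum, 5685 in mammary gland, 2365 in uterus, 1479 in blood cells, 187 in testes, 144 in rumen and 29.4 in frontal cortex.

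S100 genes encode calcium-binding proteins, of which some are abundant in granulocytes and others in stratified epithelium. In their window (chromosome 3, 16 to 18 Mb) 1 of 58 genes was high (1.72%) and 2 were low. The gene most abundant in blood cells, within chr3:16375731-16507247, was expressed in all tissues, with 5351 in blood cells and 1398 to 9393 in the 7 others, and that at chr3:16886145-16888570 had 1636 in blood cells and 126 to 2588 in the others. The other 3 of the leading 5 had their signal mainly in blood cells and rumen. At chr3:17163356-17165408 the FPKM was 4387 in blood cells and 31149 in rumen, with 1.19 to 74.8 in the 6 other tissues. At chr3:17146699-17147997 it was 1509 in blood cells and 5827 in rumen, with a listed 0 to 38.4 in the others. At chr3:17176217-17179040 it was 621 in blood cells and 802 in rumen, with a listed 0 to 11.5 in the others. None of these 3 genes was counted as high, since rumen exceeded blood cells in each.

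Globins are made in red cell precursors. In the beta globin window (chromosome 15, 46 to 50 Mb) 2 of 165 genes were high (1.21%, near the share over all genes), 1 of them at chr15:49022978-49024619, with 278 in blood cells, 12.6 in frontal cortex, 7.09 in mammary gland, 4.97 in abomasum, 3.13 in uterus, 2.22 in ileum, 0.510 in rumen and a listed 0 in testes. In the alpha globin window (chromosome 25, 0 to 1 Mb) 0 of 60 genes were high and 3 were low, and the highest FPKM in blood cells was 75.8. HOX genes pattern the embryo, and keratins and protocadherins belong to epithelial and neural cells. In blood cells an FPKM of 1 was reached by 4 of 21 genes in the HOXA window, 4 of 16 in HOXD, 17 of 53 in HOXB, 30 of 88 in that of type I keratins and 14 of 40 in that of type II keratins, against 11202 of 24886 over all genes. The HOXC window (32 of 57) and that of protocadherins (37 of 80) were not below that share. High genes numbered 2 in the window of type I keratins (2.27%), 1 each in HOXB (1.89%) and HOXC (1.75%), and 0 in the other 4. Low genes numbered 2 in each keratin window, 1 in HOXB and 0 in the rest.

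As a list, the genes low in blood cells had similar medians in the solid tissues, although single genes differed widely between them. The median FPKM was 0.242 in blood cells and 18.1 to 29.3 in the 7 others, in the order uterus, rumen, mammary gland, ileum, frontal cortex, abomasum and testes. Of the 341, 52 were listed at 0 in blood cells, 65 still had an FPKM of at least 1 there, and 3 reached 10. The low genes held 0.0384% of the summed FPKM in blood cells and 2.07% to 6.43% in the solid tissues, a direction that their rule set. Their spans had a median of 27578 bases, against 21305 for high genes and 20159 over all genes. A pseudocount of 0.1 in place of 1 raised the count of low genes to 827, since it widens differences near 0.

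The gene ranked first among the low was ENSBTAT00000019758 at chr7:64877755-64910051. Its FPKM was 1.01 in blood cells, 1006 in uterus, 609 in testes, 504 in rumen, 383 in ileum, 325 in mammary gland, 273 in abomasum and 215 in frontal cortex. Blood cells were thus 6.74 below the lowest solid tissue, as log2(FPKM + 1). The gene ranked next, ENSBTAT00000064987 at chr29:44770865-44771529, was listed at 0 in blood cells, with 666 in rumen, 142 in frontal cortex, 98.4 in ileum, 90.8 in uterus, 90.3 in mammary gland, 81.9 in testes and 60.9 in abomasum. At chr29:48167154-48194210 a listed 0 in blood cells stood against 194 in rumen, 126 in abomasum, 105 in uterus, 92.4 in testes, 82.3 in mammary gland, 78.8 in frontal cortex and 55.8 in ileum. None of these 3 genes came near the level of blood cells in any solid tissue.

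The other 7 of the leading 10 were chosen by the same rule. At chr18:52965112-52977208 the FPKM was 0.385 in blood cells and 65.9 to 254 in the 7 others. At chr15:28318411-28352995 it was 3.13 in blood cells and ran from 160 in uterus to 2422 in rumen, and the gene overlapped another at 18.9 in blood cells. At chr6:104149457-104203199 it was 0.326 in blood cells and ran from 40.5 in mammary gland to 1082 in frontal cortex. At the genes chr5:27044001-27048226, chr12:89009656-89166026, chr22:48611898-48613043 and chr5:116616200-116695692 blood cells had 0.0615 to 0.312, and the lowest solid tissue had 33.1 to 40.98.

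Low genes formed 4 clusters holding 12 of 341 genes (3.52%), against the 19 clusters of high genes. With a distance of 100 kb only 1 cluster of low genes was found. At chr3:33768050-33880598, 3 of 4 genes were low. Its gene at chr3:33768050-33770824 was listed at 0 in blood cells, with 24.1 in abomasum, 25.6 in rumen, 36.6 in ileum, 64.6 in mammary gland, 104 in uterus, 358 in frontal cortex and 2099 in testes. At chr3:33805454-33846061 the FPKM was 2.26 in blood cells and 62.0 to 348 in the 7 others. The third gene, at chr3:33873900-33880598, had 0.0899 in blood cells and 8.49 to 66.4 in the 7 others, and the remaining gene had 0.0555 in blood cells and 0.391 to 39.5 in the others.

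The cluster at chr29:44644727-44771529 held 3 low genes of 13, and it was also the only cluster of genes listed at 0. The second of its genes, at chr29:44766936-44768512, was listed at 0 in blood cells, with 422 in rumen and 6.98, in abomasum, as its lowest value. A gene of the same span, at chr29:44661675-44665098, had its highest value in blood cells, with 198 against 63.2 in mammary gland. The cluster at chr7:16824894-17114222 held 3 low genes of 18, among them chr7:17106394-17114222, with 0.903 in blood cells, 1655 in rumen, 1383 in ileum and 26.5 to 92.7 in the 5 other tissues. The cluster at chr16:52219417-52712499 held 3 of 33, with 0.196 to 1.04 in blood cells. By chromosome, the share of low genes was highest on chromosome 27 (7 of 286, 2.45%) and lowest on X (5 of 1130, 0.442%), against 1.37% over all genes, and these shares rest on few genes.

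Zeros were examined apart, because an exact 0 in a table without counts can be a failed estimate. The mitochondrial locus, used by every cell, was listed at 0 in frontal cortex and rumen and at 103757 in blood cells. None of the 153 genes listed at 0 in blood cells was marked as failed or as holding too much data there. Their lowest value in the solid tissues was at least 10 in 14 genes, of 3743 genes at that level in all 7 others, and at least 30 in 2, of 1189. Of the 153, 42 overlapped another locus, and 16 of these a locus above 0 in blood cells. The gene at chr11:104130864-104133701 overlapped another gene, so its values are uncertain. There the listed 0 stood against 22.4 in testes, 57.6 in abomasum, 62.5 in ileum, 91.8 in rumen, 124 in mammary gland, 190 in uterus and 261 in frontal cortex. At chr3:94016515-94046962 it stood against 74.1 in rumen, 49.4 in uterus, 33.3 in abomasum, 27.6 in mammary gland, 26.8 in testes, 17.9 in frontal cortex and 17.4 in ileum. Both genes were well above the level of 3 reads in each solid tissue, while a value above 0 there was set by the rule.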

How the data were processed

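RNA-Seq was performed on 8 cattle tissues, 1 library each, from total RNA with a kit that does not mark strand. Per the labels and the study's methods, the authors aligned filtered single-end reads to UMD3.1 with TopHat2 (version 2.0.13) and estimated expression with default Cufflinks settings. The deposited table holds FPKM values per locus for each pair of tissues, and a value was the same in each pair. Its columns of fold changes, test statistics, p-values and q-values were not used.

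Levels were compared as log2(FPKM + 1) over loci with an identifier, without a test. Overlapping high loci were merged before clusters were built. Depth was recovered from loci of 88 to 130 bases without identifier, assuming fragments of 200 bases (SD 80). The lowest depth tried at which nearly all values were whole reads (tolerance 0.03) was taken. The share of whole reads, 95.3% to 100%, was therefore set by this search and does not measure the fit. It is the depth after the authors' scaling that is given. Steps were tested on simulated data. Genes were named by rank: the leading 20 high and 10 low, and members of the largest clusters. Cluster families were looked up after the clusters were seen, and 2 windows whose family lay mostly elsewhere were dropped. Members and lists were chosen with earlier results of these data known. Python 3.11.15, pandas 2.3.3 and numpy 2.4.6 were used.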

Additional observations from a re-analysis of the deposited data

Results flagged for a closer look

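Loci without an identifier were outside the comparison. Of 9373 such loci spanning at least 300 bases, 243 were high in nucleated blood cells by the rule used for genes, and 86 of these were listed at 0 in the 7 other tissues. In the solid tissues the same count was 2898 in testes, 537 in frontal cortex, 338 in abomasum, 225 in rumen, 76 in uterus, 59 in ileum and 32 in mammary gland. Within 5 kb of a gene lay 101 of the 243. At chr4:112547409-112574577 the FPKM was 331 in blood cells, 1.13 in frontal cortex and 0.269 in testes, with a listed 0 in the 5 other tissues. At chr19:14759762-14765352 it was 1785 in blood cells and 6.07 to 28.5 in the 7 others. At chr22:59686551-59687511 it was 123 in blood cells, with a listed 0 in the 7 others. What these loci encode was not tested.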

How the results depend on the processing

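No paired analysis was possible because a single library stood for each tissue and nothing was tested. Of 77 alternative counts and correlations, 63 stayed close to the value reported (counts within 1.5 times, correlations within the SD over tissues). A fold of 2 gave 872 high and 964 low genes and a fold of 8 gave 81 and 131, by construction. Genes with a single transcript and no overlap gave 221 high genes, as fewer genes were compared. Leaving out ileum gave 576 high genes and 34 clusters of them. A pseudocount of 0.1 gave 827 low genes. Among genes listed at 0 in blood cells, a minimum FPKM of 5 elsewhere left 26, and no minimum gave 725. At 100 kb, 9 clusters of high and 1 of low genes were found. Without a filter on low values, r was 0.633 with testes and 0.693 with frontal cortex. The filter of FPKM 1 changed no high or low call, since the fold already exceeded it. Leaving out each tissue for the clusters, and spans of at least 300 bases or 2 kb, were alternatives chosen after seeing the data. With 1 library a tissue, the spread between animals is unknown.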
